A study of Mus musculus with 6 samples.

Results

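Described here are 7 genes of the megakaryocyte and platelet lineage in mouse long-term haematopoietic stem cells (LT-HSCs), namely Pf4, Itga2b, Itgb3, Vwf, Gp9, Gp1bb and Selp. They were taken by gene symbol as textbook platelet-lineage genes, with earlier results of these data known, and all 7 had a row among the 14986 genes of the deposited expression table. The study compared 3 libraries labelled Zcchc8 KO with 3 labelled wild type (WT), each made from polyadenylated RNA of 1500 sorted bone marrow LT-HSCs after lineage depletion and cDNA amplification. ZCCHC8 is the scaffold protein of the nuclear exosome targeting complex, which brings unstable RNAs of the nucleus to the exosome for decay, and the comparison asks how losing it alters the stem cell transcriptome. Strain, age, the kind of Zcchc8 allele, any Cre driver and the surface markers of the sort are not stated in the sources used here. Whether replicates were separate animals is not stated either, and p-values therefore measure only the spread between these libraries, which may be technical.

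Megakaryocytes are the large marrow cells that shed platelets. They load alpha granules with proteins such as platelet factor 4 (Pf4), von Willebrand factor (Vwf) and P-selectin (Selp), and they carry 2 adhesion receptors in quantity: the integrin of the subunits αIIb (Itga2b, CD41) and β3 (Itgb3, CD61), which binds fibrinogen, and the glycoprotein Ib-IX-V complex, which binds von Willebrand factor and is built from the products of Gp1ba, Gp1bb, Gp9 and Gp5. Stem cells share several of these transcripts with megakaryocytes, and a platelet-biased class of mouse LT-HSCs is recognised by its expression of Vwf. The cytokine thrombopoietin maintains both cell types.

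Values are in FPKM, a read density scaled to exon length and library size. Levels of different genes can be set side by side only roughly. The alignment partly loses reads across exon junctions, and this loss can differ between genes with few and many exons. The reads behind the FPKM values came to between 18059325 and 25709665 per library. The identity of the sort was checked with 12 LT-HSC markers, all of which had rows, and their summed level was 239 to 280 FPKM in KO and 267 to 311 FPKM in WT libraries. The stem cell antigen gene Ly6a was the most abundant of them (153 ± 29.3 FPKM in KO and 129 ± 26.4 FPKM in WT; SD, n = 3 each), and the other 11 summed to 91.2 to 118.8 FPKM in KO and 152 to 159 FPKM in WT. None of the 12 was called, but 5 were lower in every KO library with an unadjusted limma p under 0.05, namely Procr, Hlf, Hoxb5, Kit and Ndn. Of all tested genes, 6.99% were lower in KO without overlap and 4.33% were lower at that unadjusted limma p. Among the 5 markers, Ndn measured 4.63 ± 4.54 FPKM in KO and 19.8 ± 5.25 FPKM in WT, and Kit 23.2 ± 4.03 FPKM in KO and 36.7 ± 3.97 FPKM in WT (SD, n = 3 each). Zcchc8 itself measured 10.4, 5.54 and 5.92 FPKM in KO and 8.93, 5.24 and 5.16 FPKM in WT libraries. A single value per gene cannot show the loss of part of a gene, so directions below are those of the libraries labelled KO.

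The 7 genes spanned more than 3 orders of magnitude in level and kept nearly the same order in every library. Without Gp1bb, whose exon bases are mostly shared with other genes, the span was from 219 to 1.45 FPKM. Pf4 was the most abundant, at 219 FPKM over the 6 libraries, which placed it 321st of the 14986 genes. Gp9 followed at 58.0 FPKM (place 1191) and Itga2b at 34.1 FPKM (place 1976). Selp at 8.70, Itgb3 at 7.09 and Vwf at 1.45 FPKM came next, and Gp1bb was close to the detection limit at 0.0749 FPKM (place 14671). Pf4, Gp9 and Itga2b held the first 3 places in all 6 libraries, without overlap between neighbours. Selp stood above Itgb3 in the 3 KO libraries and below it in the 3 WT libraries, where the ranges of both genes overlapped.

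**Figure D1:**
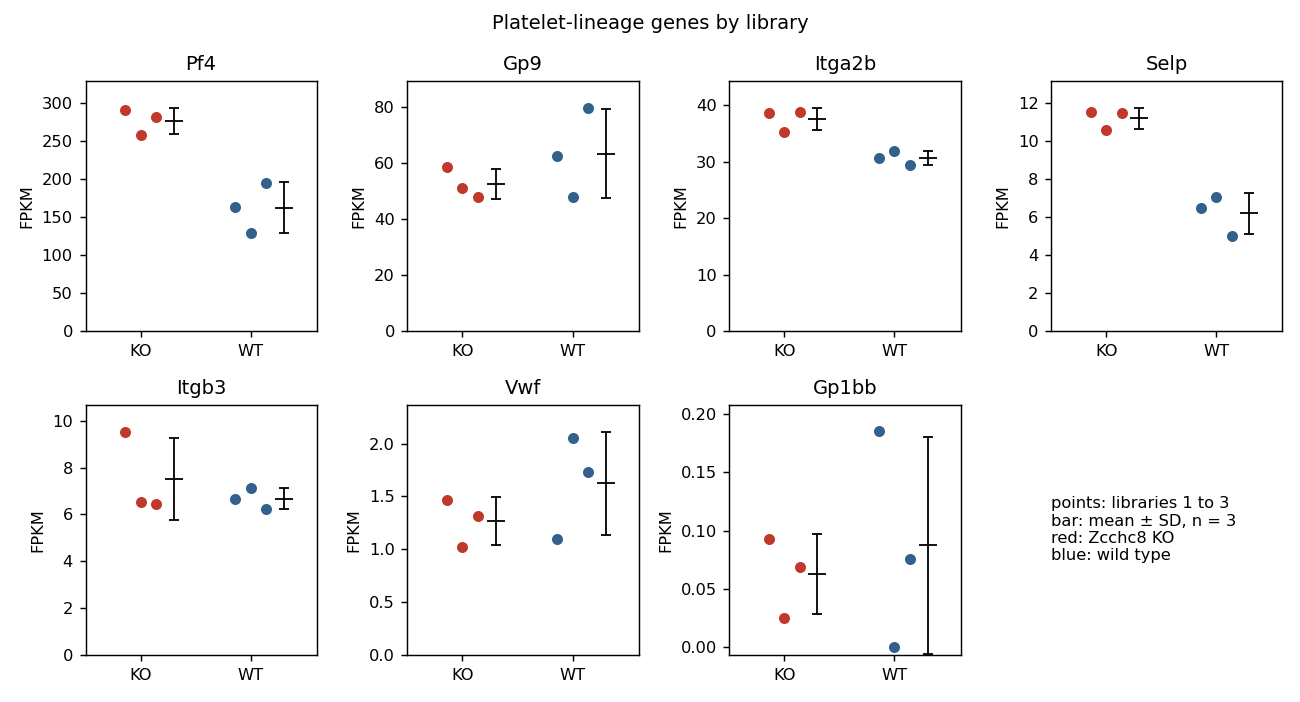
FPKM (vertical axis, linear from 0) of each of the 7 genes in the 3 KO libraries (red, left) and the 3 WT libraries (blue, right), with the mean and SD of each group beside the points. Pf4, Itga2b and Selp were higher in each KO library than in any WT library, while Gp9, Itgb3, Vwf and Gp1bb overlapped between groups.

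In the comparison of KO with WT, 3 of the 7 genes, Pf4, Selp and Itga2b, stood higher in every KO library than in every WT library, and none stood lower in this way. None passed the test over all genes. The test was limma on log2(FPKM + 1) over the 11837 genes averaging 1 FPKM or more, a filter that 6 of the 7 genes met, with a Benjamini-Hochberg adjusted p of 0.05 as the threshold. It called 27 genes, or 0.228% (0.177% higher and 0.0507% lower), and 0 of these 6. At an unadjusted p under 0.05, 2 of the 6 (Pf4 and Selp, both higher in KO) were counted, where 9.20% of all tested genes were (4.87% higher and 4.33% lower). Groups did not overlap for 3 of the 6, where they did not for 15.2% of all tested genes, and for 8.24% with KO higher and 6.99% with KO lower. These 6 genes are few and were picked with such results known, so the counts are a description. In bulk RNA, more cells that express a gene and more RNA per cell cannot be told apart.

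Pf4 encodes platelet factor 4 (CXCL4), a chemokine stored in alpha granules (chromosome 5, 90772435 to 90773383, GRCm38, plus strand, 3 exon blocks). It measured 290.1, 257.2 and 281.4 FPKM in the KO libraries, against 163.5, 128.5 and 194.7 FPKM in the WT libraries. The lowest KO library thus lay above the highest WT library, and the WT libraries were the more spread of the groups. Mean levels were 276 ± 17.1 FPKM in KO and 162 ± 33.1 FPKM in WT (SD, n = 3 each), a ratio of 1.70. The log2 change was 0.78 ± 0.14 (SE), with a 95% confidence interval of 0.45 to 1.11, an unadjusted limma p of 0.000449 and an adjusted p of 0.116. By an exact permutation test, two-sided, p = 0.1, the smallest that 3 libraries against 3 can give. Counting error was small beside this spread, since 1695 to 5377 reads lay behind each value.

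Selp encodes P-selectin, the alpha granule membrane protein that moves to the surface of activated platelets and binds leukocytes (chromosome 1, 164115264 to 164150026, plus strand, 17 exon blocks). It measured 11.5, 10.6 and 11.5 FPKM in the KO libraries, against 6.49, 7.07 and 5.02 FPKM in the WT libraries. All KO values lay within a narrow band above the WT values. The means were 11.2 ± 0.550 FPKM in KO and 6.19 ± 1.06 FPKM in WT (SD, n = 3 each), a ratio of 1.81 and a log2 change of 0.77 ± 0.24 (SE; 95% confidence interval 0.23 to 1.31). The unadjusted limma p was 0.0101, the adjusted p 0.340 and the exact permutation p = 0.1. Exons of Gm16587 and Gm16548 on the opposite strand cover 14.1% of its exon bases, and strand use in counting is not stated in the sources used here, so a part of its reads could belong to these.

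Itga2b encodes the αIIb integrin subunit (chromosome 11, 102453297 to 102470122, minus strand, 28 exon blocks). Its levels were 38.7, 35.3 and 38.8 FPKM in the KO libraries, against 30.7, 31.95 and 29.3 FPKM in the WT libraries. The groups did not overlap, but the step was smaller than that of Pf4 or Selp: 37.6 ± 1.99 FPKM in KO and 30.7 ± 1.30 FPKM in WT (SD, n = 3 each), a ratio of 1.23. The log2 change was 0.28 ± 0.15 (SE; 95% confidence interval -0.04 to 0.61), with an unadjusted limma p of 0.0822, an adjusted p of 0.594 and an exact permutation p = 0.1.

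Itgb3, the β3 partner of αIIb on platelets (chromosome 11, 104608000 to 104670476, plus strand), lies 2.14 Mb from Itga2b. It measured 9.54, 6.54 and 6.45 FPKM in the KO libraries, against 6.67, 7.12 and 6.23 FPKM in the WT libraries. KO library 1 was high and the other KO libraries lay within the WT range. The log2 change was 0.13 ± 0.26 (SE; 95% confidence interval -0.45 to 0.72; limma adjusted p = 0.918), and it was -0.032 without KO library 1. The ratio of Itga2b to Itgb3 within a library was 4.05, 5.39 and 6.0 in KO and 4.599, 4.49 and 4.71 in WT. Itga2b thus had several times the FPKM of Itgb3 in each library, and the groups overlapped. Itgav, whose product is the other α subunit that pairs with β3, was low, at 0.936 ± 0.550 FPKM in KO and 1.06 ± 0.546 FPKM in WT (SD, n = 3 each), under the expression filter.

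Gp9 encodes glycoprotein IX, a small leucine-rich subunit (chromosome 6, 87778072 to 87779768, plus strand, 2 exon blocks). Its levels were 58.7, 51.0 and 48.02 FPKM in the KO libraries, against 62.4, 48.02 and 79.8 FPKM in the WT libraries. The KO values lay inside the WT range, whose ends were WT libraries 2 and 3, on either side of library 1. The log2 change was -0.24 ± 0.19 (SE; 95% confidence interval -0.67 to 0.19; limma adjusted p = 0.745). It ranged from -0.42 without WT library 2 to -0.06 without WT library 3, and without WT library 2 it had an unadjusted p of 0.0428 (limma adjusted p = 0.633).

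Gp1bb encodes the β chain of glycoprotein Ib (chromosome 16, 18620317 to 18622403, minus strand, 1 exon block). Only 5, 1 and 3 reads were behind its values in the KO libraries and 7, 0 and 3 in the WT libraries, or 0.0932, 0.0253 and 0.0690 FPKM in KO against 0.186, 0 and 0.0760 FPKM in WT. The 0 reads of WT library 2 allow a level of up to 0.0786 FPKM (3 reads, counting error only). Both groups were at or near that limit, so no fold is given and a difference was not detectable with so few reads. Of its 2087 exon bases, 1938 (92.9%) are shared on the same strand with exons of Sept5 and Gm49601, which leaves 149 bases of its own. The treatment of reads over several genes is not stated in the sources used here, so the low value does not show that the transcript is absent. Sept5, listed in the table as Septin5, was also low, at 0.507, 0.0135 and 0.110 FPKM in KO and 0, 0.0698 and 0 FPKM in WT.

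The other subunits of the glycoprotein Ib-IX-V complex were uneven. Gp5, encoding glycoprotein V, measured 78.3, 51.3 and 62.4 FPKM in KO, against 49.5, 44.9 and 29.1 FPKM in WT, without overlap (log2 change 0.64 ± 0.23, SE; limma unadjusted p = 0.0212, adjusted p = 0.435). It was thus about as abundant as Gp9 and was the member of the complex with groups apart. Gp1ba, encoding the chain that holds the von Willebrand factor site, measured 0.0429, 1.16 and 4.31 FPKM in KO and 0, 4.02 and 3.48 FPKM in WT, with low and high values in each group (adjusted p = 0.943).

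Vwf encodes the ligand of that complex (chromosome 6, 125546774 to 125686679, plus strand, 56 exon blocks). It measured 1.47, 1.02 and 1.32 FPKM in the KO libraries, against 1.09, 2.05 and 1.73 FPKM in the WT libraries. The groups overlapped, with WT library 1 among the KO values. The log2 change was -0.20 ± 0.34 (SE; 95% confidence interval -0.97 to 0.57; limma adjusted p = 0.905), and it was -0.35 without WT library 1 and -0.08 without WT library 2. The interval, on the log2(FPKM + 1) scale, which shrinks the change of such a low gene, covers ratios from 0.511 to 1.49. The reads behind each value numbered 312 to 607 over 16064 exon bases.

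**Figure D2:**
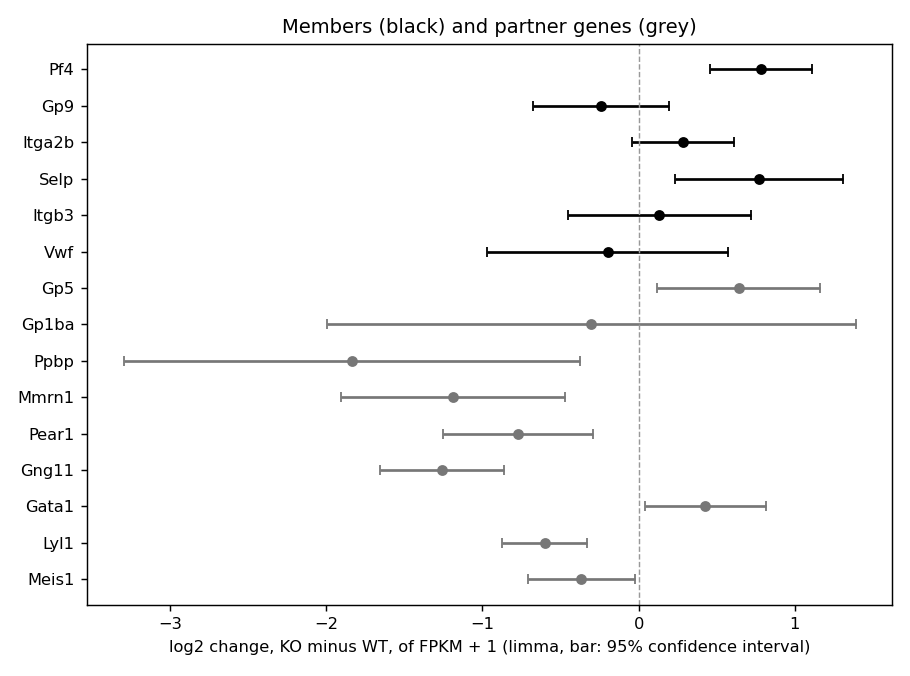
Log2 change of FPKM + 1, KO minus WT, from limma (horizontal axis), with the 95% confidence interval as a bar, for the 6 tested platelet-lineage genes (black) and for partner genes named in the text (grey). The intervals of Pf4 (0.45 to 1.11) and Selp (0.23 to 1.31) lie above 0, those of the other 4 members include 0, and that of Gng11 lies below 0.

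Differences between KO and WT were uneven among the members. Ratios between members cancel any difference in scale between libraries, and all 15 pairs of the 6 tested genes were compared. Pf4 and Selp were set on top of every pair with another member. For 7 pairs the KO and WT ratios did not overlap, and all 7 held Pf4 or Selp and were higher in KO. These ratios reuse the values given above, so they are a description and no further support. The share of such pairs among other genes was not computed. The ratio of Pf4 to Gp9 was 4.94, 5.04 and 5.86 in KO libraries, against 2.62, 2.68 and 2.44 in WT libraries. It varied little among the WT libraries and was higher in each KO library. The ratio of Selp to Itga2b was 0.298, 0.2997 and 0.297 in KO, against 0.211, 0.221 and 0.171 in WT. The ratio of Pf4 to Selp overlapped between groups, at 24.7 ± 0.425 in KO and 27.4 ± 10.5 in WT (SD, n = 3 each). Each of the 7 had an exact two-sided permutation p = 0.1, the smallest possible, and 0.214 after adjustment over the 15 pairs.

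**Figure D3:**
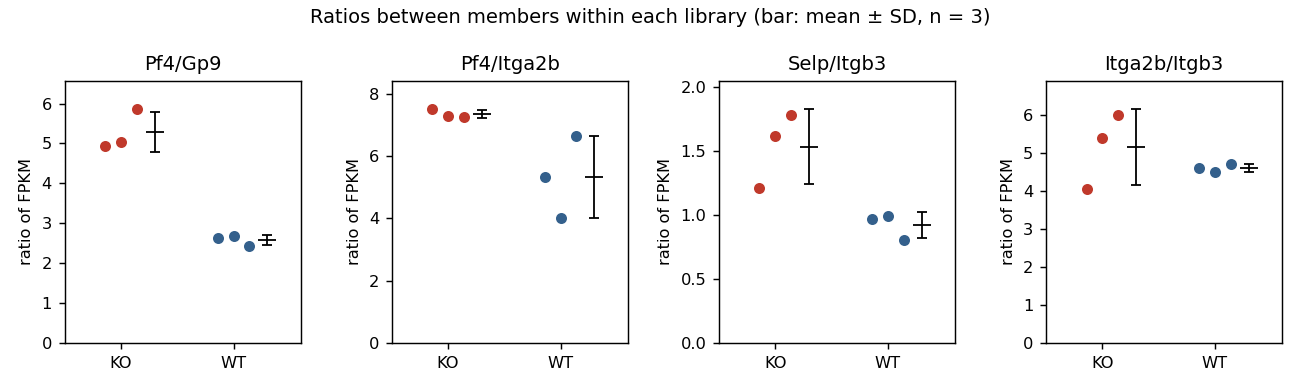
Ratio of FPKM between pairs of members within each library (vertical axis, from 0), KO left in red and WT right in blue, with mean and SD (n = 3). The Pf4/Gp9 ratio was 4.94 to 5.86 in KO and 2.44 to 2.68 in WT, whereas Itga2b/Itgb3 overlapped between groups.

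To show the sequence in front of the members with the highest ratios of KO to WT, Pf4 and Selp, the 250 bases before the RefSeq start (GRCm38.p6) are given, read 5′ to 3′ on the strand of the gene. RefSeq windows were matched for 5 of the 7 genes. Capitals mark the words searched on both strands: the words AGGAAG or else CGGAAG, which hold the core bound by ETS factors such as Fli1; the words AGATAA or else AGATAG or also TGATAA or else TGATAG, bound by GATA factors; and the word TGTGGT, bound by Runx1. No such word overlaps another in these windows. The windows are chr5:90772185-90772434 (plus strand) for Pf4 and chr1:164115014-164115263 (plus strand) for Selp. The RefSeq window of Itga2b is not printed, because 239 of its 250 bases lie inside the gene as GENCODE annotates it, so that the start differs between the annotations.
Pf4: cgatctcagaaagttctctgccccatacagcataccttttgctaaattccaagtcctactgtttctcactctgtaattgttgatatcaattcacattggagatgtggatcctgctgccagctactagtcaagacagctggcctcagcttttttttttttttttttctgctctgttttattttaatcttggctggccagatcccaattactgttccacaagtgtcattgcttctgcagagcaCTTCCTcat
Selp: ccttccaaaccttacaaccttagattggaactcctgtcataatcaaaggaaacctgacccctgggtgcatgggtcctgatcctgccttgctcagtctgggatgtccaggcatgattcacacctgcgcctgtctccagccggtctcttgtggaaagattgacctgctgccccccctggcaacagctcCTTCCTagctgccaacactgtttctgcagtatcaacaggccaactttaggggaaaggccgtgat

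An ETS word was present in all 5 matched windows, in Pf4 from -9 to -4, in Selp from -64 to -59, and in Itga2b from -125 to -120 and from -43 to -38, counted from the RefSeq start. Gp9 held it from -16 to -11 and Gp1bb from -90 to -85. Of all 32851 RefSeq windows of this length, 39.2% hold an ETS word, 26.5% a GATA word and 14.0% the RUNX word. A GATA word was found in the window of Gp1bb alone and the RUNX word in that of Gp9 alone. Both ETS words of Itga2b lie inside the gene as GENCODE annotates it. The ETS word thus stood before Pf4 and Selp, whose groups were apart, and also before Gp9 and Gp1bb. A match is a description of letters, not of binding.

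The wider platelet programme was read from 7 lists of genes by role, 139 of which passed the expression filter. Of these 139, 1 fell, Gng11, and 0 rose at an adjusted p of 0.05 (limma; background 0.228%). At an unadjusted p under 0.05, 15 were higher and 12 lower in KO, or 27 of 139 (19.4%), where 9.20% of all tested genes were (4.87% higher and 4.33% lower). Without overlap, 20 were higher and 13 lower (23.7%), where 15.2% of all tested genes were. These lists, too, were chosen with results known. The median log2 change of the 139 was 0.04 and that of all tested genes 0.00, with 77 higher and 62 lower by value. Members of every list were found on both sides of 0.

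**Figure D4:**
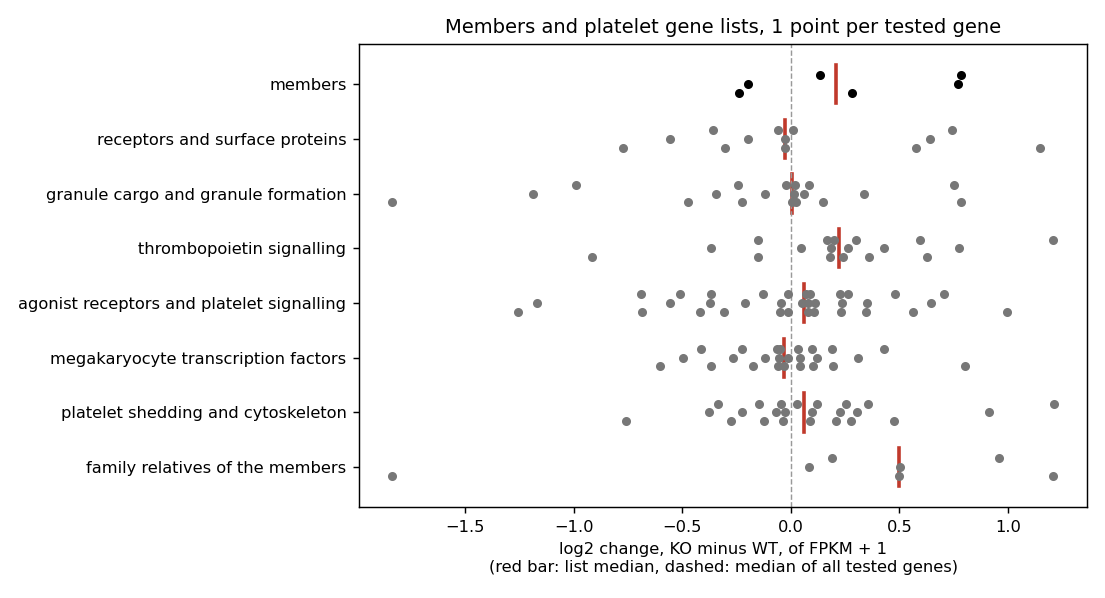
Log2 change of FPKM + 1, KO minus WT (horizontal axis), of each tested gene of the 7 platelet-lineage genes (top row) and of the 7 role lists, with the list median as a red bar. The medians run from -0.03 for receptors and for transcription factors to 0.50 for the family relatives, of which 7 were tested.

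In the list of thrombopoietin signalling, Socs1 and Socs2, feedback inhibitors of cytokine receptors, stood at 12.2 ± 1.07 and 15.1 ± 2.29 FPKM in KO and at 5.03 ± 2.62 and 8.57 ± 2.26 FPKM in WT (SD, n = 3 each; adjusted p = 0.256 and 0.385). Of the 18 tested members of the list 0 passed, 14 were higher by value and 4 lower, with 3 and 1 at an unadjusted p under 0.05 (22.2% of the list, against 9.20% of all tested genes).

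Among agonist receptors and signalling genes, Gng11, a G protein γ subunit abundant in platelets, fell to 67.8, 111.5 and 104.6 FPKM in KO, against 221.8, 212.8 and 233.1 FPKM in WT (log2 change -1.26 ± 0.18, SE; limma adjusted p = 0.0321). Its call ended in 8 of the 16 other settings: without an expression filter (adjusted p = 0.0572), without the variance trend (0.261), with the replicate block (0.0750), in limma-voom on recovered reads (0.0991), without KO library 3 (adjusted p = 0.0687) and without WT library 1, 2 or 3 (adjusted p = 0.126, 0.132 and 0.141), with log2 changes of -1.35, -1.26, -1.29 and -1.22 when these libraries were left out. F2r, encoding the thrombin receptor PAR1 and named here after its values were seen, measured 117 ± 27.8 FPKM in KO and 73.3 ± 3.62 FPKM in WT without overlap (SD, n = 3 each; adjusted p = 0.228). Of the 34 tested genes of this list 1 passed, and 3 were higher and 4 lower at an unadjusted p under 0.05 (20.6%, against 9.20% of all tested genes).

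Of 19 tested genes of granule cargo and granule formation other than the members, 0 passed over all genes, 10 were higher and 9 lower by value, and the median log2 change was 0.0045. At an unadjusted p under 0.05, 1 was higher and 2 lower (15.8%, against 9.20% of all tested genes). Mmrn1, encoding the granule protein multimerin, measured 5.15, 12.3 and 7.38 FPKM in KO, against 14.5, 22.6 and 21.1 FPKM in WT, each KO library below each WT library (log2 change -1.19 ± 0.32, SE; adjusted p = 0.256). Ppbp, the chemokine gene 2.4 kb from Pf4 on chromosome 5, measured 0, 4.87 and 0.133 FPKM in KO and 7.21, 3.79 and 6.69 FPKM in WT (adjusted p = 0.418). The groups overlapped through KO library 2. Vps33b, needed for alpha granule formation, stood at 10.04 ± 1.79 FPKM in KO and 5.72 ± 2.49 FPKM in WT (SD, n = 3 each; adjusted p = 0.537).

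Of 13 tested surface proteins 0 passed, with Gp5 higher and Pear1, F11r and 1 further gene lower at an unadjusted p under 0.05 (30.8%, against 9.20% of all tested genes). Pear1, a platelet adhesion receptor, measured 17.0 ± 1.18 FPKM in KO and 30.4 ± 7.87 FPKM in WT, and F11r, a junctional adhesion molecule, 14.04 ± 1.95 FPKM in KO and 21.04 ± 2.26 FPKM in WT (SD, n = 3 each; limma adjusted p = 0.278 and 0.422). The further gene was Esam, an adhesion molecule of platelets, endothelium and stem cells, at 60.6 ± 7.81 FPKM in KO and 77.7 ± 5.46 FPKM in WT (adjusted p = 0.482), named after its values were seen.

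Of the 25 tested transcription factors of the lineage 0 passed, 2 were higher and 2 lower at an unadjusted p under 0.05 (4 of 25, against 9.20% of all tested genes), and the median log2 change was -0.03. Gata1, which drives megakaryocyte and erythroid maturation, measured 59.3, 59.6 and 42.6 FPKM in KO and 42.7, 36.7 and 38.7 FPKM in WT, with KO library 3 inside the WT range (adjusted p = 0.496). The stem cell factors Lyl1 (137 ± 18.7 FPKM in KO and 207 ± 13.2 FPKM in WT, adjusted p = 0.129) and Meis1 (38.2 ± 1.11 FPKM in KO and 49.8 ± 6.99 FPKM in WT, adjusted p = 0.506) were lower in every KO library than in any WT library (SD, n = 3 each). Without overlap, 1 of the 25 was higher and 4 lower in KO (20.0%, against 15.2% of all tested genes). Nfe2 (93.9 ± 3.42 FPKM in KO and 106 ± 9.83 FPKM in WT) and Erg (11.5 ± 1.79 FPKM in KO and 16.9 ± 4.62 FPKM in WT) were the further lower ones. The higher one was Lmo2 (441 ± 29.5 FPKM in KO and 387 ± 21.7 FPKM in WT). Fli1 (110 ± 12.8 FPKM in KO and 95.6 ± 8.21 FPKM in WT), Gfi1b (60.6 ± 9.10 FPKM in KO and 60.3 ± 17.8 FPKM in WT) and Runx1 (8.26 ± 0.559 FPKM in KO and 8.69 ± 1.25 FPKM in WT) overlapped between groups (SD, n = 3 each). These 6 genes are named after their values were seen.

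In the list of platelet shedding and cytoskeleton, 0 of 24 passed, 3 were higher and 0 lower at an unadjusted p under 0.05 (12.5%, against 9.20% of all tested genes). These were Pfn1, encoding profilin (603 ± 12.9 FPKM in KO and 472 ± 6.55 FPKM in WT, limma adjusted p = 0.0982), and the tubulin genes Tubb2a (10.01 ± 1.29 FPKM in KO and 4.05 ± 2.34 FPKM in WT, adjusted p = 0.301) and Tuba8 (30.1 ± 3.96 FPKM in KO and 21.5 ± 4.01 FPKM in WT, adjusted p = 0.509) (SD, n = 3 each). Tubb1, the platelet tubulin, measured 0.854 ± 1.36 FPKM in KO and 1.69 ± 0.497 FPKM in WT (adjusted p = 0.695), and is named after its values were seen. Among 7 tested relatives of the members 0 passed, and 2 were higher and 1 lower (Ppbp) at an unadjusted p under 0.05 (42.9%, against 9.20% of all tested genes). The leukocyte integrin genes Itgb7 (14.3 ± 7.28 FPKM in KO and 5.19 ± 1.20 FPKM in WT, adjusted p = 0.357) and Itgb2 (21.6 ± 5.59 FPKM in KO and 11.1 ± 5.29 FPKM in WT, adjusted p = 0.387) stood higher without overlap.

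Over the 6 libraries, the genes most like Pf4 among 6310 genes of at least 5 FPKM were Mt1, a metallothionein, Necap2, an endocytosis gene, and Mplkip. Likeness was the root mean square difference of log2(FPKM + 1) centred on each gene's mean, 0.14, 0.14 and 0.15, against 0.43 for the spread of Pf4 itself. Mt1 measured 35.3, 35.5 and 44.4 FPKM in KO and 20.4, 14.7 and 27.04 FPKM in WT. As for Pf4, WT library 2 was lowest and WT library 3 highest of the WT libraries. Such a shared order follows in part from the choice by likeness over these same libraries.

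Markers of other cell types differed between the groups, and their part in the values of Pf4, Selp and Itga2b was not tested. The erythroid list (10 of 12 markers with rows) summed to 440 to 476 FPKM in KO and 119 to 158 FPKM in WT. Of its 9 tested genes 4 were called higher, where 0.177% of all tested genes were. The granulocyte list (10 of 10) summed to 3898 to 4322 FPKM in KO and 3055 to 3181 FPKM in WT, the eosinophil list (4 of 6) to 161 to 205 FPKM in KO and 0.116 to 1.02 FPKM in WT, and the list of the macrophage, monocyte and dendritic lineages (5 of 8) to 267 to 299 FPKM in KO and 140 to 157 FPKM in WT. These 4 sums stayed apart, higher in KO, without the most abundant gene of each. Of the 10 granulocyte markers, however, 5 were higher and 2 lower in KO without overlap, where 8.24% and 6.99% of all tested genes were. The list of the macrophage, monocyte and dendritic lineages lacked rows for Csf1r, Adgre1 and Ccr2. Beside Cd68, it rested on the MHC class II genes H2-Aa, H2-Ab1 and H2-Eb1 and the invariant chain gene Cd74.

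Other sums rested on 1 or 2 genes. The list of mast cells and basophils (4 of 6 with rows) summed to 64.2 to 111.7 FPKM in KO and 20.3 to 35.6 FPKM in WT, through Gzmb (48.2 ± 22.3 FPKM in KO and 8.07 ± 1.33 FPKM in WT) and Fcer1a (27.6 ± 4.42 FPKM in KO and 9.63 ± 4.87 FPKM in WT). Cpa3 was at 4.17 ± 1.63 FPKM in KO and 5.96 ± 1.44 FPKM in WT and Mcpt8 at 2.19 ± 1.81 FPKM in KO and 3.39 ± 1.40 FPKM in WT, with overlap (SD, n = 3 each). The multipotent progenitor list (4 of 4) summed to 176 to 189 FPKM in KO and 117 to 124 FPKM in WT, but overlapped without Cd48 (71.7 to 81.0 FPKM in KO and 65.4 to 76.1 FPKM in WT). T and NK cells (4 of 7) summed to 310.2 to 323 FPKM in KO and 189 to 232 FPKM in WT, and overlapped without Nkg7 (12.6 to 21.2 FPKM in KO and 4.84 to 15.5 FPKM in WT). The B cell list (9 of 9) summed to 84.3 to 117.8 FPKM in KO and 809 to 926 FPKM in WT, lower in KO through the immunoglobulin gene Igkc (0.451 ± 0.782 FPKM in KO and 795 ± 62.7 FPKM in WT; SD, n = 3 each). Its other 8 markers summed to 84.3 to 116.4 FPKM in KO and 60.6 to 70.1 FPKM in WT, higher in KO. Of these 8, 5 were higher without overlap, namely Cd79a, Ighm, Vpreb1, Vpreb3 and Pax5, where 8.24% of all tested genes were.

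Endothelial cells also make Vwf and Selp. Their list (13 of 15 with rows) summed to 98.3 to 111.3 FPKM in KO and 126 to 136 FPKM in WT. The sum was lower in each KO library, and 0 of 8 tested genes were called. Tek is also on the LT-HSC list, so the sum does not measure endothelial cells alone. Without the most abundant gene, Eng, the sums were 64.7 to 79.2 FPKM in KO and 79.5 to 87.6 FPKM in WT. Pecam1, Emcn, Tek and Egfl7 were higher in KO by value (log2 change 0.20, 0.46, 0.55 and 0.12). Eng, Robo4, Cldn5 and Tie1 were lower (-0.60, -0.97, -1.75 and -0.37). The endothelial genes Kdr, Plvap, Ptprb, Flt1 and Stab2 were under the filter, the most abundant being Plvap at 0.286 ± 0.329 FPKM in KO and 0.582 ± 0.646 FPKM in WT (SD, n = 3 each). No marker with a row was listed at 0 in all 6 libraries.

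**Figure D5:**
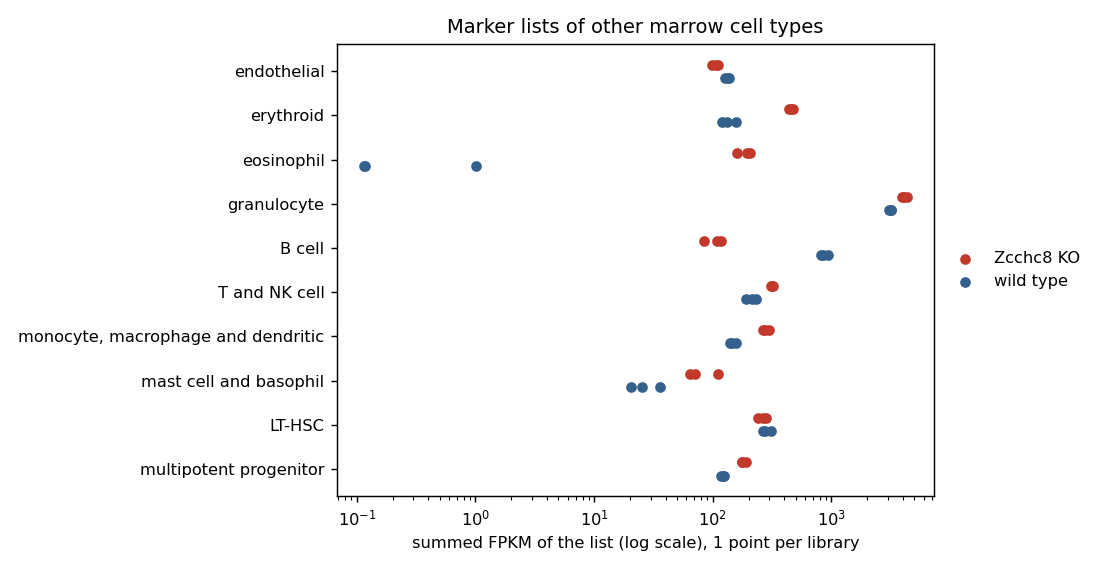
Summed FPKM (horizontal axis, log scale) of 10 marker lists in each KO library (red, upper row of each list) and WT library (blue, lower row). The erythroid sums were 440 to 476 FPKM in KO and 119 to 158 FPKM in WT, and the LT-HSC sums, of which Ly6a was the largest part, overlapped.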

How the data were processed

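Polyadenylated RNA of 6 LT-HSC samples, 3 Zcchc8 KO and 3 wild type by their titles, was sequenced. The authors deposited 1 table of FPKM values by gene symbol; fastp, Bowtie2, featureCounts and build mm10 are named, per the submitters' processing notes, with no versions. Since Bowtie2 aligns without introns, reads across exon junctions are partly lost. Strand and multi-gene settings are not stated in the sources used here. Of 14986 symbols, 14671 (97.9%) matched GENCODE M21 (GRCm38, the assembly of mm10). FPKM times exon length gave whole reads, within 0.05, for 98.0% of values under 100 reads, and so the depth of each library. Amplified cDNA without molecular identifiers repeats molecules, so floors and counts of reads cover counting error only.

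KO was compared with WT in limma 3.58.1 (R 4.3.3; lmFit, eBayes with trend, two-sided) on log2(FPKM + 1) for 11837 genes averaging 1 FPKM or more. Benjamini-Hochberg adjustment ran over all of them (threshold 0.05), and all adjusted p-values of genes come from limma. Fold values are ratios of mean FPKM. The procedure was run on simulated data with log2 changes larger than that of any member, so it was not tested for changes of their size. Exact permutation tests used scipy 1.17.1, and figures matplotlib 3.10.9 (Python 3.11.15). Named were the members, their partners, the called genes or the 3 of smallest p of each list, and the genes most like Pf4; others are marked, and a few named by the rule are not reported here. Members and lists were chosen with earlier results of these data known. Alternatives changed the pseudocount, filter, scaling, variance trend, replicate block and libraries used; limma-voom on recovered reads was chosen after seeing the data.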

Additional observations from a re-analysis of the deposited data

How the results depend on the processing

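None of the 6 tested members was called in limma under any of 16 other settings, nor by limma-voom on recovered reads, one of them and chosen after seeing the data, where 3 had an unadjusted p under 0.05. The log2 change of Pf4 stayed between 0.63 and 0.92 (adjusted p from 0.0687 to 0.407), that of Selp between 0.65 and 0.87 (0.302 to 0.552) and that of Itga2b between 0.24 and 0.33 (0.483 to 0.746); Pf4 and Selp had an unadjusted p under 0.05 in all 16. Itgb3 changed sign in 1 setting, -0.032 without KO library 1, and lay between that and 0.218 when libraries were left out in turn. Gp9 and Vwf kept their direction. Gp1bb was tested without a filter alone, and Vwf is not in the fit with a filter of 5 FPKM. The count of called platelet genes outside the members, 1, went to 0 without a filter, without the variance trend and with the replicate block, to 2 with a filter of 5 FPKM or quantile scaling, and lay between 0 and 1 when libraries were left out in turn; with voom the 1 gene was Pfn1, higher (adjusted p = 0.0402), in place of Gng11. The count over all genes, 27, went to 8 without the trend, 11 with the replicate block and 8 with voom, and ranged from 11 to 19 when libraries were left out. Whether replicate numbers pair the libraries is not known. Deviations of same-numbered KO and WT libraries correlated at 0.0235, 0.0071 and 0.00369, and 3 of 6 libraries correlated best with their own number. With so few libraries these values cannot exclude pairing. The block changed no call of a member and ended that of Gng11 (adjusted p = 0.075). Among the members only Gp1bb had few reads, 0 to 7, and whether depth or its shared exon bases set this was not tested.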

Other observations

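Within the WT group, the members with a short and those with a long summed exon length deviated in opposite directions. WT library 2 was lowest of the WT libraries for Pf4 (721 exon bases) and Gp9 (881 exon bases) and highest for Itga2b, Itgb3, Selp and Vwf (4413 to 16064 exon bases). The log2 difference of FPKM + 1 between WT library 3 and WT library 2 was 0.60 for Pf4 and 0.72 for Gp9, and -0.12 for Itga2b, -0.17 for Itgb3, -0.16 for Vwf and -0.42 for Selp. Over all matched tested genes the median of this difference was 0.03 for 1133 genes with a summed exon length under 1000 bases. It was -0.01 for 5490 genes with one over 4000 bases. Both medians were smaller in size than the differences of the members. The median log2 change of KO minus WT in these classes was 0.06 and -0.03. In the KO libraries this split was not seen: KO library 1 was the highest for Gp9, Itgb3, Vwf, Selp and Pf4, and KO library 2 lowest for Pf4, Itga2b, Vwf and Selp.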
